A study of Mus musculus with 9 samples.

Results

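Transcript levels of 10 genes of the BCL2 family were examined in mouse embryonic stem cells (mESC) kept in 3 culture media. The genes were chosen by name as the members outside the well-known p53 targets of the family, namely Bcl2, Bcl2l1, Mcl1, Bak1, Bok, Bcl2l11, Bid, Bad, Bik and Hrk, by a rule that uses no measured value. All 10 were among the 29069 genes of the deposited total RNA-Seq table, and all 10 passed the filter on low values that left 18156 genes for testing. Bcl2 did so only through its value in 1 sample. The cells were the mES-D3 line, adapted to growth without feeder cells and used at passages p5-p8. Each medium was applied for 24 h and has 3 replicates. Ground state medium (GS) was serum-free N2B27 with the MEK inhibitor PD0325901 at 1 μM, the GSK-3 inhibitor CHIR99021 at 3 μM and the cytokine LIF at 20 ng/mL, which together hold mESC in the naive state. Differentiation medium (DM) was DMEM with 10% fetal bovine serum and none of these factors, and NO medium was DM with 250 μM of the nitric oxide donor DETA/NO. DM therefore differs from GS in the basal medium, the serum, the inhibitors and LIF at once, and these cannot be told apart. NO differs from DM by the donor. The cells are 1 line, and RNA was taken from 1 dish per sample. The labels do not say whether replicates came from separate cultures. A p-value here therefore weighs a difference against the spread between these samples only. That spread was taken over all 3 media and adjusted by limma with the use of all tested genes.

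The BCL2 family controls the permeability of the outer mitochondrial membrane, the step at which the intrinsic pathway of apoptosis commits a cell to die. Pro-survival proteins hold pore-forming effectors such as BAK in check. BH3-only proteins trigger the pathway by binding to the pro-survival proteins, to effectors or to both. Embryonic stem cells are known to be poised for apoptosis, with a readiness to die after damage that many differentiated cells lack.

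The values are normalised read counts, that is, reads per gene that the authors scaled by a factor for each library and rounded to whole numbers, and their totals ranged from 18290445 to 20508679 per sample. The spacing of low values put the depth at an estimated 14311901 to 27064952 assigned reads, with 1 read worth 0.70 to 1.32 normalised counts. All 10 mESC markers examined were detected in every sample. Of these, Tfcp2l1 (means of 31053 in GS, 11299 in DM and 13316 in NO) and Dppa3 were called lower in DM and NO than in GS. Utf1 was called higher in DM than in GS (4.54-fold) and lower in NO than in DM. The other mESC markers were not called in any comparison. Of these, Nanog was lower in DM than in GS (log2 fold change -0.80, adjusted p = 0.0311 in limma) and passed the adjusted p alone. So did Pou5f1, which was lower in NO than in DM (-0.95, adjusted p = 0.0349). Sums over the 10 were 102476 to 105270 in GS, 82783 to 88039 in DM and 50397 to 84028 in NO. Sums over 9 fibroblast markers were 318 to 496, 412 to 447 and 385 to 416 in the same order, and Postn and Lum were at 0 in 7 and 5 of the 9 samples. Of these 9 genes, Thy1 was called higher in DM and NO than in GS (3.24-fold and 2.78-fold), and Col1a1 in NO against GS and DM (2.80-fold and 2.94-fold), while Pdgfrb passed the adjusted p alone with a log2 fold change of -0.97 in NO against GS. Sums over 7 primitive endoderm markers were 145 to 205, 113 to 197 and 230 to 709. Among them Gata6 was called higher in NO than in GS and DM (7.3-fold and 8.7-fold), with NO values of 20, 234 and 90. Gata4 in NO against DM and Dab2 in NO against GS passed the adjusted p alone, both higher in NO. Sox17 and Pdgfra did not pass, and Sox7 and Foxa2 were too low to be tested. Sums over 7 trophoblast markers were 661 to 689, 186 to 251 and 361 to 1244. The trophoblast markers did not move together. Cdx2 and Eomes were called lower in DM and NO than in GS, and Tfap2c lower in DM. Krt7 and Hand1 were called higher in NO than in GS and DM, Tfap2c and Gata3 higher in NO than in DM, and Elf5 was not called. The second NO replicate had the lowest mESC sum and the highest sums of the endoderm and trophoblast lists within NO. Its largest trophoblast values were those of Krt7 (484) and Tfap2c (426). On the first principal component this replicate lay at 131.2 against 25.9 and 67.1 for the other NO replicates. The part of these differences in the results below was not tested, and in bulk samples fewer cells of a type and less RNA per cell cannot be told apart.

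Among the 10 genes, the BH3-only genes Hrk and Bcl2l11 differed among the media in the moderated F test of limma (adjusted p = 0.0275 and 0.0191), a share of 2 in 10 where 23.3% of all tested genes passed. Both were higher in DM and in NO than in GS, Hrk by about 3-fold and Bcl2l11 by just under 2-fold. Bid was lower and Bik higher in every DM and NO sample than in any GS sample, but both missed the F test (adjusted p = 0.0556 and 0.0971). None of the 10 passed the test between NO and DM. The plot of the members by sample shows all 9 values of each gene.

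**Figure D1:**
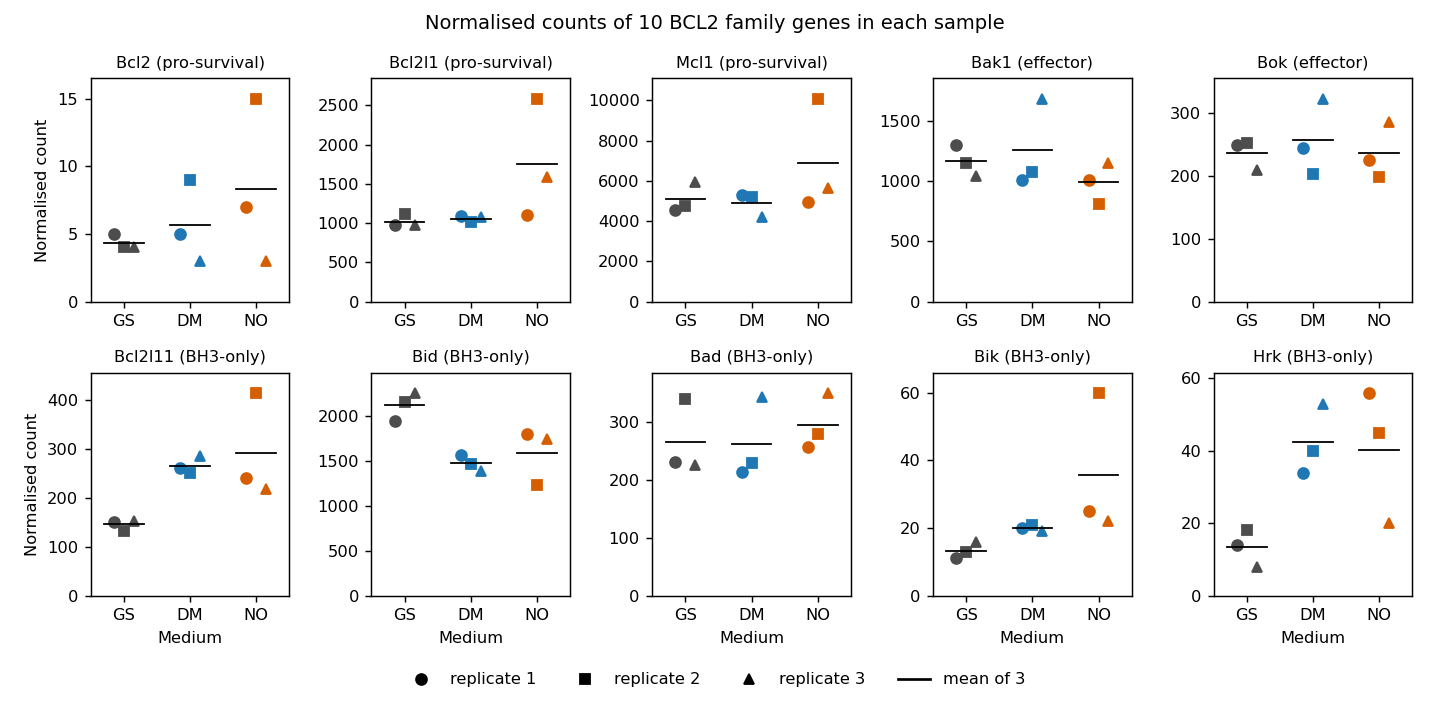
Normalised count (linear vertical axis from 0, own scale for each gene) of the 10 genes in GS, DM and NO, with 1 symbol per replicate and a line at the mean of 3. Bcl2l11, Bik and Hrk lie higher in all DM and NO samples than in GS, and Bid lies lower. Bcl2, Bcl2l1, Mcl1, Bcl2l11 and Bik have their highest value in the second NO replicate.

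The pro-survival genes encode proteins that bind and restrain effectors such as BAK, the product of Bak1. Mcl1, whose product is short-lived and needed by the early embryo, lies on chromosome 3 at chr3:95658788-95663176 (GRCm38, plus strand). In GS the normalised counts of Mcl1 were 4578, 4741 and 5964, against 5311, 5178 and 4191 in DM and 4944, 10085 and 5658 in NO. The second NO replicate stood above all other samples, and the groups overlapped in each comparison. The log2 fold change was -0.06 ± 0.24 (SE) between DM and GS, 0.37 ± 0.24 between NO and GS and 0.43 ± 0.24 between NO and DM, with adjusted p = 0.929, 0.284 and 0.236 in limma. Without the second NO replicate the NO values were 0.06 and 0.12.

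Bcl2l1 encodes BCL-XL, the pro-survival protein of many adult cells, and lies at chr2:152780668-152831728 (minus strand). For Bcl2l1 the normalised counts reached 975, 1113 and 972 in GS, 1086, 1014 and 1073 in DM, and 1105, 2584 and 1584 in NO. The DM samples lay within the GS range, all NO samples lay above all DM samples, and the lowest NO sample lay within the GS range. DM and GS differed by a log2 fold change of 0.05, with a 95% confidence interval from -0.47 to 0.58. NO exceeded GS by 0.70 ± 0.24 (SE; adjusted p = 0.0598) and DM by 0.65 ± 0.24 (adjusted p = 0.0906), neither of which passed the threshold of 0.05. Single NO libraries moved these values, as the difference to GS was 0.99 with adjusted p = 0.00326 without the first NO replicate and 0.38 with adjusted p = 0.151 without the second, and that to DM was 0.94 (adjusted p = 0.00536) and 0.32 (adjusted p = 0.266). With all 9 samples the difference to GS passed the threshold under equal totals (0.81, adjusted p = 0.0319) and quantile normalisation (0.78, adjusted p = 0.0460).

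Bcl2, which named the family, lies at chr1:106538178-106714274 (minus strand) and was barely detected. Normalised counts of Bcl2 were 5, 4 and 4 in GS, then 5, 9 and 3 in DM, then 7, 15 and 3 in NO, which corresponds to an estimated 2 to 13 reads per sample. Only the value of 15 in the second NO replicate lifted its mean above the minimum of 5, and without that replicate Bcl2 was not tested. The groups overlapped, and at this depth a difference was not detectable, with a 95% interval of the log2 fold change from -0.71 to 1.89 between NO and GS. Of its exon length, 6.09% is shared with the opposite-strand gene D630008O14Rik.

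The effectors Bak1 and Bok encode proteins that can themselves form pores in the outer membrane, and neither passed a test. Bak1, at chr17:27019810-27029009 (minus strand), stood at 1302, 1148 and 1047 normalised counts in GS, against 1007, 1080 and 1685 in DM and 1009, 814 and 1155 in NO. The third DM replicate was the highest of the 9 and the second NO replicate the lowest, and the groups overlapped throughout. The log2 fold changes were 0.08 for DM against GS, -0.24 for NO against GS and -0.32 for NO against DM, each with an SE of 0.20 and adjusted p = 0.881, 0.433 and 0.313. Ggnbp1 on the other strand overlaps 25.5% of the exon length of Bak1.

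Bok, at chr1:93685660-93695764 (plus strand), stood at 248, 251 and 209 normalised counts in GS, at 243, 203 and 322 in DM, and at 224, 197 and 285 in NO. The 3 groups overlapped, and the DM samples had the widest range. Its 95% interval ran from -0.36 to 0.55 for DM against GS and from -0.48 to 0.44 for NO against GS on the log2 scale.

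Of the BH3-only genes, only Hrk and Bcl2l11 passed the F test over the media, as 23.3% of all tested genes did. Their upstream sequence is shown here for that reason. Bik and Bid also lay apart from GS in both other media but missed this test. The sequences are those of RefSeq in build GRCm38.p6, which lists 13 promoters of 300 bases, from 250 before to 50 after a start site, for 9 of the 10 genes, with none found for Bik. Below are the bases before both starts of Bcl2l11 and before the start listed for Hrk, where 16 bases that another transcript counts as exon were left out. The start listed for Hrk lies inside the span given for the gene below, not at its edge. In all, 5 motifs were searched on both strands, and capitals mark a match to a FOXO motif.
Bcl2l11, chr2:128125788-128126037, plus strand: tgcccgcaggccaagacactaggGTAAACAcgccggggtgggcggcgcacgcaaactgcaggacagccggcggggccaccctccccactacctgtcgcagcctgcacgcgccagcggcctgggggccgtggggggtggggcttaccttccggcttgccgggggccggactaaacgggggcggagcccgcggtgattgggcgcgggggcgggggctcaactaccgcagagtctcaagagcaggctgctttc
Bcl2l11, chr2:128127325-128127574, plus strand: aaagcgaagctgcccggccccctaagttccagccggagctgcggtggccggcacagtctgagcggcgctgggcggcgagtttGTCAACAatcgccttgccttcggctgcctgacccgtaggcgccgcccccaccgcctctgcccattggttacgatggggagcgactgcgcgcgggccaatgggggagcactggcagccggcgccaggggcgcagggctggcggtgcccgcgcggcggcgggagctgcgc
Hrk, chr5:118169514-118169747, plus strand: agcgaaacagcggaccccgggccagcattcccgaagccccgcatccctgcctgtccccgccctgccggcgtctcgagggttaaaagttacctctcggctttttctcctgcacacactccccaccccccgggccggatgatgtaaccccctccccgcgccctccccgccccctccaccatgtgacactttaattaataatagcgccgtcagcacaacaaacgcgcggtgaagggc

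FOXO factors are activated when growth factor signalling falls and are known regulators of Bcl2l11. GTAAACA stood 227 bases before the first start of Bcl2l11 and is present in 3.65% of the 32851 promoters listed. GTCAACA stood 168 bases before the second start and is present in 2.5% of them. None of the other members' promoters held either motif, and none of the 13 held TTCNNNGAA (STAT, 8.3% of all promoters), TTTGGCGC (E2F, 0.514%) or TGACGTCA (CRE, 1.79%). The printed stretches are rich in G and C, at 72.0%, 73.2% and 63.7%, against a median of 52.7% over the promoters listed. A match is a description of the letters only.

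Hrk encodes Harakiri, a BH3-only protein that binds BCL2 and BCL-XL and is best known from neurons deprived of growth factors. It lies at chr5:118164648-118189478 (plus strand). The 3 GS samples held 14, 18 and 8 normalised counts of Hrk, the DM samples 34, 40 and 53, and the NO samples 56, 45 and 20. Every DM sample exceeded every GS sample by a wide margin, whereas the third NO replicate, at 20, lay just above the highest GS sample, at 18. Hrk rose by a log2 fold change of 1.64 ± 0.43 (SE), or 3.11-fold, in DM and by 1.47 ± 0.43, or 2.78-fold, in NO, with adjusted p = 0.0429 and 0.0326 in limma. NO and DM differed by -0.16 ± 0.43 (adjusted p = 0.830).

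The level of Hrk was low, at an estimated 6 to 20 reads per sample in GS, 40 to 57 in DM and 15 to 80 in NO, and both calls lay near the threshold. The DM call was lost in 11 of 18 alternative settings and the NO call in 9 of 18. The DM difference missed the threshold without any 1 of the 3 GS or 3 DM replicates, with log2 fold changes of 1.34 to 1.88 and adjusted p between 0.0643 and 0.177. The NO difference missed it without GS replicate 1 (1.54, adjusted p = 0.0685), GS replicate 3 (1.17, 0.122), DM replicate 2 (1.47, 0.0511), NO replicate 1 (1.18, 0.0761) or NO replicate 2 (1.34, 0.0890).

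Bcl2l11 encodes BIM, which binds all the main pro-survival proteins and can activate the effectors directly. The gene lies at chr2:128126038-128162547 (plus strand). The GS samples held 151, 133 and 152 normalised counts of Bcl2l11, the DM samples 261, 250 and 285, and the NO samples 240, 414 and 218. The 6 samples outside GS all exceeded the 3 GS samples, and the NO samples spanned the DM range. Bcl2l11 rose by a log2 fold change of 0.86 ± 0.23 (SE), or 1.82-fold, in DM and by 0.94 ± 0.23, or 1.92-fold, in NO, with adjusted p = 0.0440 and 0.0146 in limma, both under the 2-fold minimum of the study. NO and DM differed by 0.07, with a 95% interval from -0.43 to 0.57.

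The rise of Bcl2l11 in NO passed the adjusted p in 18 of 19 alternative settings, the exception being the fit without the second GS replicate (0.88, adjusted p = 0.0598). The rise in DM passed it in 8 of 19, with adjusted p between 0.102 and 0.156 without any 1 of the GS or DM replicates.

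Bid encodes a BH3-only protein that caspase-8 cleaves, which joins the death receptors to the mitochondria. It lies at chr6:120891930-120916853 (minus strand). In GS the normalised counts of Bid were 1952, 2154 and 2261, against 1570, 1471 and 1389 in DM and 1801, 1236 and 1746 in NO. All GS samples lay above all others, and the DM samples lay within the NO range. The log2 fold change against GS was -0.52 ± 0.16 (SE; adjusted p = 0.0736) in DM and -0.43 ± 0.16 (adjusted p = 0.0728) in NO, neither past the threshold, with 95% intervals from -0.86 to -0.18 and from -0.77 to -0.09. The DM difference passed in 2 of 19 alternative settings, with only the 6 samples compared (adjusted p = 0.0199) and without the second NO replicate (adjusted p = 0.0117), and the NO difference in 1 of 19, without the first NO replicate (adjusted p = 0.0356). Bcl2l13 on the other strand overlaps 17.7% of the exon length of Bid, and whether the counting used the strand is not given in the sources used here.

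Bik encodes a BH3-only protein found largely at the endoplasmic reticulum and lies at chr15:83526862-83544634 (plus strand). In GS it was found at 11, 13 and 16 normalised counts, with 20, 21 and 19 in DM and 25, 60 and 22 in NO. The 3 groups did not overlap and stood in the order GS, DM, NO, with the second NO replicate far above the rest. The log2 fold change was 0.56 ± 0.40 (SE; adjusted p = 0.480) in DM and 1.23 ± 0.40 (adjusted p = 0.0509) in NO against GS, and 0.66 ± 0.40 (adjusted p = 0.287) between NO and DM. The NO difference was 0.79 with adjusted p = 0.172 without the second NO replicate, and it passed the threshold without the first (adjusted p = 0.0379) or the third (adjusted p = 0.0491). With all 9 samples it also passed under equal totals (1.33, adjusted p = 0.0358) and without the trend (1.23, adjusted p = 0.0474), so that it passed in 4 of 18 alternative settings.

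Bad encodes a BH3-only protein that growth factor kinases hold inactive by phosphorylation, a control that transcript levels do not show, and lies at chr19:6941861-6951899 (plus strand). For Bad the normalised counts came to 232, 340 and 226 in GS, 214, 229 and 343 in DM, and 258, 279 and 351 in NO. The groups overlapped, with log2 fold changes of -0.03, 0.17 and 0.20 for DM against GS, NO against GS and NO against DM, each with an SE of 0.23. Gpr137 on the other strand overlaps 20.5% of its exon length.

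**Figure D2:**
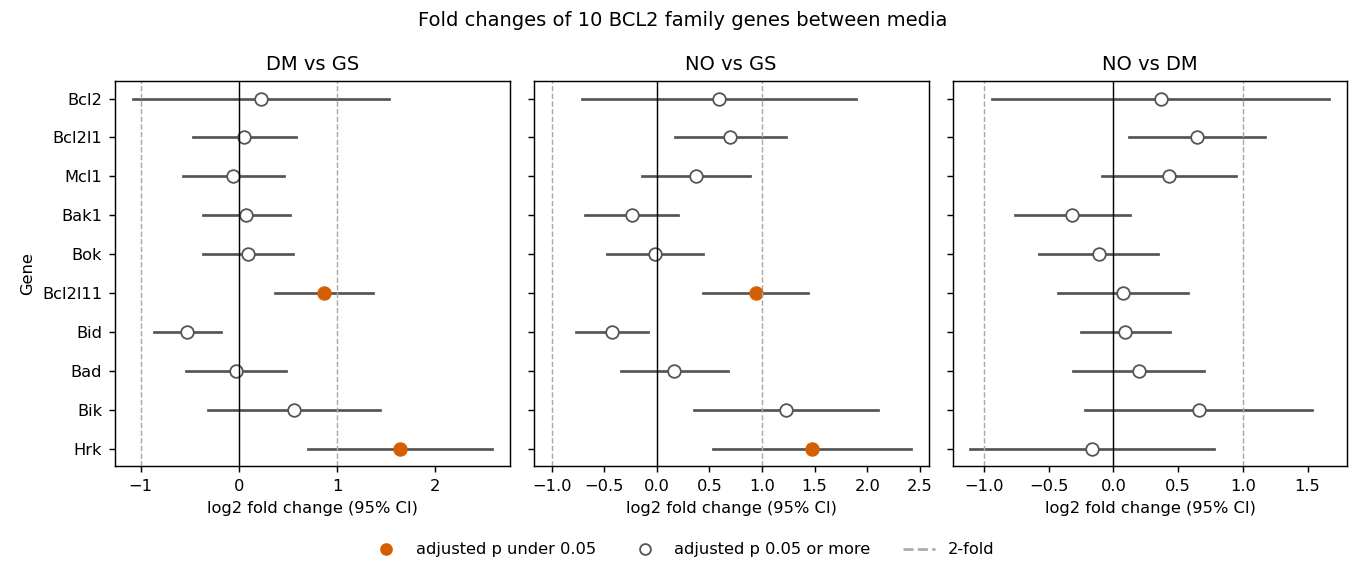
Log2 fold change (horizontal axis) of the 10 genes in the 3 comparisons, with bars for the 95% confidence interval of limma, filled points for an adjusted p under 0.05 and dashed lines at 2-fold. Hrk and Bcl2l11 are filled in both comparisons with GS, the interval of Bcl2 is the widest of the 10, and no point is filled for NO against DM.

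Release from the ground state was addressed by DM against GS. Of the 10 genes, 1 (Hrk) passed both thresholds and 2 (Hrk and Bcl2l11) passed the adjusted p alone, where 4.2% and 6.69% of all tested genes did. Both were higher in DM, the direction of 2.94% and 4.37% of all tested genes under the same criteria. In 4 of the 10 the samples did not overlap, against 29.6% of all tested genes. Of these, 3 were higher (Bcl2l11, Bik and Hrk) and 1 lower (Bid) in DM, where 16.2% of all tested genes were separate and higher and 13.5% separate and lower. The median log2 fold change was 0.05 over the 3 pro-survival genes, 0.09 over the 2 effectors and 0.56 over the 5 BH3-only genes. It was 0.09 over the 10, against a median of -0.00068 over all tested genes. A median of 3 or 5 genes is the value of 1 gene, here Bcl2l1 and Bik, neither of which passed. The 5 BH3-only values ran from -0.52 to 1.64.

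The donor together with the release was addressed by NO against GS, which uses the same GS samples. Again 1 of the 10 (Hrk) passed both thresholds and 2 (Hrk and Bcl2l11) the adjusted p alone, where 11.7% and 20% of all tested genes did, and 10.1% and 13.4% did so with higher values in NO, as these genes had. In 4 of 10 the samples did not overlap, against 39.1% of all tested genes. Bcl2l11, Bik and Hrk were the 3 that were higher and Bid the 1 that was lower, next to 20.9% and 18.3% of all tested genes in these directions. The median log2 fold change was 0.59 over the pro-survival genes, -0.13 over the effectors and 0.94 over the BH3-only genes. It was 0.48 over the 10, against -0.016 over all tested genes. The 0.59 is the value of Bcl2, which was barely detected, was tested only because of the second NO replicate, and did not pass. The 0.94 is that of Bcl2l11. The BH3-only values ran from -0.43 to 1.47.

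The donor alone was addressed by NO against DM. None of the 10 genes passed the adjusted p in limma, where 14.2% of all tested genes did and 8.55% also reached 2-fold, and 1 of the 10, Bcl2l1, had an unadjusted p under 0.05, at 0.0200, where 31.3% of all tested genes did. Bcl2l1 passed the adjusted p in 1 of 19 alternative settings, the fit without the first NO replicate. In 2 of 10 (Bcl2l1 and Bik) the samples did not overlap, both higher in NO, against 33.4% of all tested genes and 18.1% that were separate and higher. The median log2 fold change was 0.43 over the pro-survival genes, -0.21 over the effectors and 0.09 over the BH3-only genes. The 0.43 is the value of Mcl1 and the 0.09 that of Bid, neither of which passed. With 3 samples per medium the 95% intervals of this comparison left room for differences of up to 1.67 for Bcl2 and 1.54 for Bik on the log2 scale, so a difference that missed the test is not shown to be absent.

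**Figure D3:**
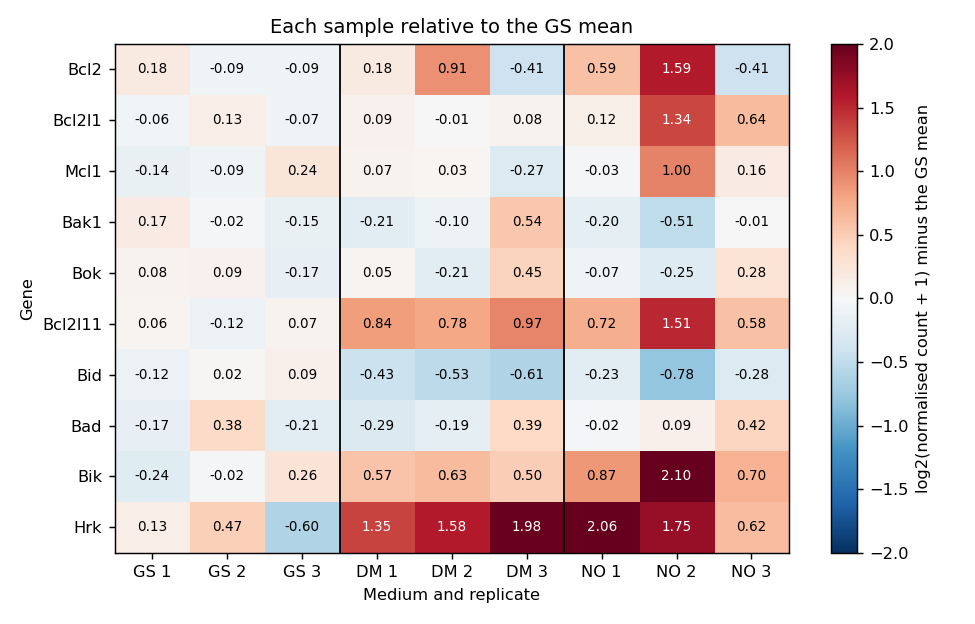
Log2(normalised count + 1) of each gene in each of the 9 samples minus the mean of the gene over the 3 GS samples, as colour and number. The second NO replicate holds the largest NO value of Bcl2l1 (1.34), Mcl1 (1.00), Bcl2l11 (1.51) and Bik (2.10), whereas the largest NO value of Hrk (2.06) is in the first.

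The spread among replicates differed between genes, with the largest SD of normalised counts in DM for Bak1, Bok and Bad and in NO for the other 7. The second NO replicate was the highest of the 3 for 5 of the 10 genes (Bcl2, Bcl2l1, Mcl1, Bcl2l11 and Bik) and the lowest for 3 (Bak1, Bok and Bid), and for all tested genes it was the highest in 41.8% and the lowest in 37.1%. The third DM replicate was the highest of DM for 5 (Bak1, Bok, Bcl2l11, Bad and Hrk) and the lowest for 4, against 40% and 39.1% of all tested genes. Over all tested genes the median SD of log2 values reached 0.214 in GS, 0.245 in DM and 0.307 in NO.

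Levels were compared between genes only per kb of merged exon, for which lengths were taken from GENCODE M21 on GRCm38. In GS the order by normalised count per kb was Mcl1 with 1490 ± 222 (SD, n = 3), Bid with 598 ± 44.2, Bak1 with 484 ± 53.4, Bcl2l1 with 222 ± 17.6, Bok with 128 ± 12.7, Bad with 104 ± 25.1, Bcl2l11 with 18.1 ± 1.33, Bik with 8.38 ± 1.58, Hrk with 2.35 ± 0.887 and Bcl2 with 0.473 ± 0.063. Only Bok and Bad overlapped among neighbours in this order. The genes thus covered more than 3 orders of magnitude per kb, with Mcl1 highest and Bcl2 lowest in every group.

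In DM, Bak1 (522 ± 155 per kb) and Bid (416 ± 25.5 per kb) stood in the opposite order but overlapped, as did Bok and Bad. In NO, Bid (449 ± 87.8), Bak1 (412 ± 71.1) and Bcl2l1 (383 ± 165) were neighbours whose samples overlapped, and so were Bok (128) and Bad (116) as well as Bcl2l11 (36.2) and Bik (22.4).

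Mcl1 held 85.1% to 89.2% of the summed per-kb level of the 3 pro-survival genes in GS, 84.0% to 87.2% in DM and 82.7% to 85.7% in NO, ranges that overlapped. Bid held 79.1% to 84.3% of the summed per-kb level of the 5 BH3-only genes in GS, against 67.2% to 76.7% in DM and 62.8% to 76.4% in NO, below GS in all 6 samples. Bcl2l11 made up 2.16% to 2.81% of the same sum in GS, 5.61% to 6.10% in DM and 4.03% to 9.30% in NO, above GS in all 6. These shares describe transcript levels per exon length, and protein levels were not measured here.

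**Figure D4:**
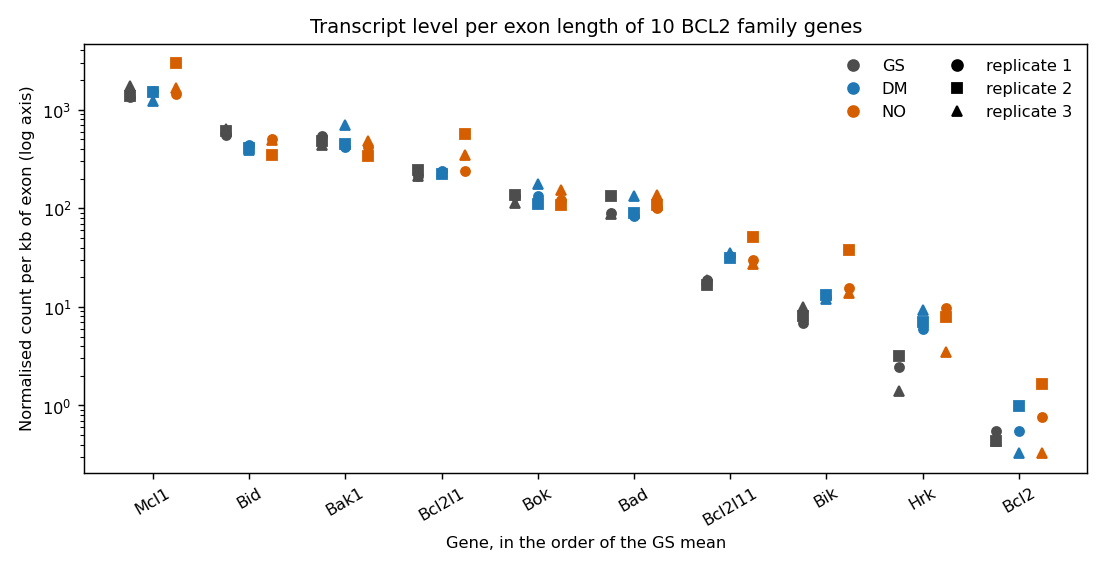
Normalised count per kb of merged exon (log vertical axis) of the 10 genes, ordered by their GS mean, with 1 colour per medium and 1 symbol per replicate. Levels run from 1490 per kb for Mcl1 to 0.473 per kb for Bcl2 in GS, and the GS, DM and NO samples of most genes lie close together on this scale.

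The pattern of Hrk over the 9 samples was compared with those of 12395 genes with a mean above 50, by the root mean square difference of log2 values centred on each gene's mean. The nearest were Itgb7, an integrin subunit, at 0.320 and Dlg4, a scaffold protein of synapses, at 0.352, where Hrk itself varied by 0.872 around its mean. The likeness describes these 9 samples only.

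The other genes of the pathway were counted in the same fit. Of 44 genes in 7 lists, 42 were in the table and 39 had a mean high enough to be tested, and Bcl2a1b and Bcl2a1d were not analysed here. In DM against GS 1 of the 39 passed both thresholds, in NO against GS 3, and in NO against DM 3, where 4.2%, 11.7% and 8.55% of all tested genes did. The adjusted p alone was passed by 1, 7 and 4 of the 39, against 6.69%, 20% and 14.2% of all tested genes. The median log2 fold changes of the 39 were -0.05, -0.03 and -0.04.

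Among the BCL2 family genes outside the 10, Bmf, a BH3-only gene whose product is known to respond to loss of attachment, had the largest change in DM. Normalised counts of Bmf were 282, 168 and 259 in GS, then 1102, 957 and 1296 in DM, then 582, 326 and 332 in NO. The 3 groups did not overlap. Bmf rose in DM by a log2 fold change of 2.26 ± 0.26 (SE; adjusted p = 0.000378) and was lower in NO than in DM by -1.48 ± 0.26 (adjusted p = 0.00574), both of which held in 19 of 19 alternative settings. Its rise in NO against GS (0.78 ± 0.26, adjusted p = 0.0499) held in 3 of 19.

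A further 2 BH3-only genes, both known p53 targets, were called in NO against GS. Pmaip1, which encodes NOXA, had normalised counts of 312, 497 and 505 in GS, then 660, 676 and 593 in DM, then 727, 2857 and 1321 in NO. Bbc3, which encodes PUMA, had 248, 181 and 188, then 245, 336 and 324, then 290, 739 and 373 in the same order. Both were highest in the second NO replicate. Pmaip1 rose by 1.71 ± 0.38 (adjusted p = 0.00973) and Bbc3 by 1.08 ± 0.30 (adjusted p = 0.0260) on the log2 scale in NO against GS, the latter lost in 5 of 19 settings. Pmaip1 was also called in NO against DM when the replicate number was a block, which made 4 genes of the lists in place of 3. Bax, an effector and p53 target, stood at 3846, 3318 and 2295 in GS, at 2569, 2882 and 7168 in DM and at 2268, 3303 and 3717 in NO and did not pass.

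Downstream and upstream of the family, 2 genes were called. Apaf1, the scaffold of the apoptosome, had normalised counts of 1978, 2000 and 2072 in GS, of 1962, 2121 and 1398 in DM and of 2722, 6515 and 3176 in NO, and rose by 1.09 ± 0.27 (adjusted p = 0.0242) in NO against DM, a call lost in 5 of 19 settings, and by 0.93 ± 0.27 (adjusted p = 0.0349) against GS. The death receptor gene Fas stood at 11, 0 and 7 in GS, at 3, 3 and 0 in DM and at 38, 317 and 123 in NO, with adjusted p = 0.00774 against GS and 0.00646 against DM, and no fold is given because the other groups were near 0. All 3 NO samples exceeded all others for both genes. Casp9 and Tnfrsf10b, singled out after their values were seen, passed the adjusted p alone in NO against GS (-0.69, adjusted p = 0.0412, and 0.80, adjusted p = 0.0220), Tnfrsf10b also in NO against DM (0.69, adjusted p = 0.0497). Casp9 passed in 8 of 19 alternative settings, and Tnfrsf10b in 16 of 19 against GS and 4 of 19 against DM. None of the 7 inhibitor of apoptosis genes and their antagonists, the 8 regulators of the family, Foxo3, Foxo1 and Trp53 among them, and the 4 BCL2-like genes of less settled role passed in any comparison.

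**Figure D5:**
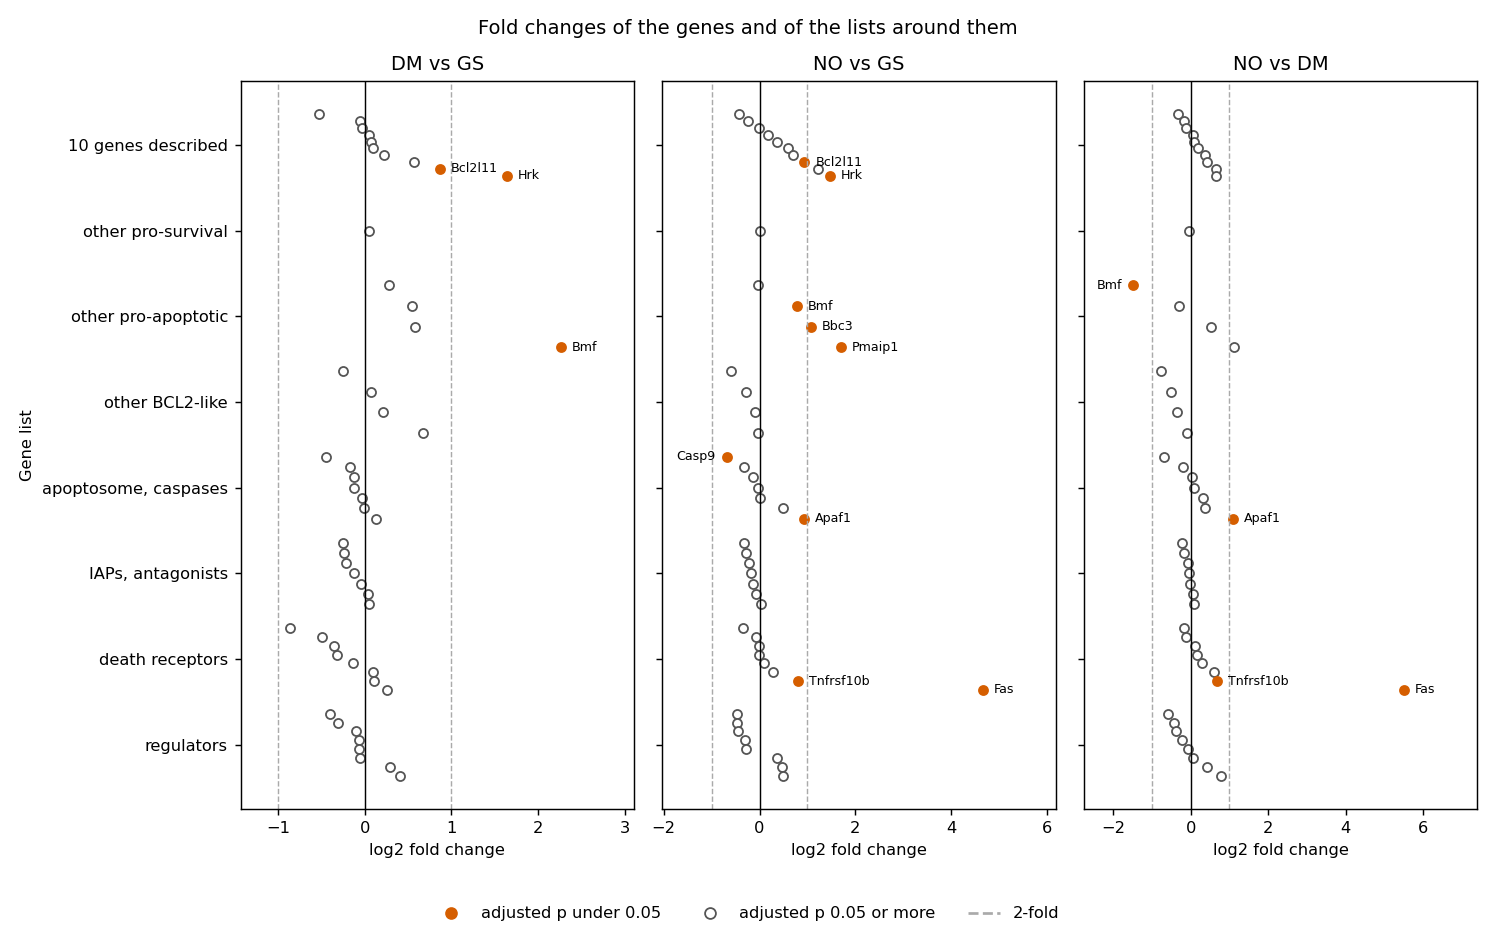
Log2 fold change (horizontal axis, own range in each panel) of the 10 genes and of the tested genes of 7 pathway lists, with filled and named points for an adjusted p under 0.05 and dashed lines at 2-fold. Bmf stands out in DM against GS (2.26) and lies on the other side of 0 in NO against DM (-1.48), and the position of Fas depends on the 1 added before logs.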

How the data were processed

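The samples were 9 total RNA-Seq libraries of mESC, 3 per medium, grouped and numbered by their labels. After ribosomal depletion and Ion Torrent Proton sequencing, the authors trimmed reads with Reaper, aligned them to GRCm38 with STAR 2.4.0a and counted reads over exons with featureCounts 1.4.5-p1, leaving out reads on several genes or positions. The deposited values are a score per gene, namely counts divided by DESeq2 size factors and rounded by the authors to whole numbers, so no count model was fitted. A column with their sum was not used.

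Values were analysed as log2(value + 1), a scale that understates changes of low genes, for genes with a mean above 5 over the 9 samples. All 9 samples entered 1 linear model in limma 3.58.1 (R 4.3.3) with the medium as factor and a mean-variance trend. Tests were two-sided, with Benjamini-Hochberg adjustment over all 18156 genes tested. A gene was called at an adjusted p under 0.05 and a change of at least 1 in either direction on the log2 scale, which are the criteria of the study. The procedure was tested on simulated data. Depth was estimated from the spacing of low values, and 3 replicates per medium set the precision.

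The 10 genes, the pathway lists and the marker lists were chosen with earlier results of these data known, so no set test and no adjustment over a list was made. All 10 genes were named, and from the lists those past both thresholds in at least 1 comparison, and for each member called the 2 genes with the most similar pattern. Same-numbered samples of NO and DM deviated together (correlations of 0.159 to 0.296 over genes for the 3 pairs), a pairing that comes from the data. The alternatives were 6-sample fits, the replicate block, other minimum means, folds and pseudocounts, equal totals, quantile normalisation, no trend, vooma weights and leaving out each replicate.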

Additional observations from a re-analysis of the deposited data

How the results depend on the processing

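With 3 replicates per medium and few reads for Bcl2, Bik and Hrk, single libraries moved the calls. Of the 558 values of the 10 genes under alternatives, 510 kept their direction and stayed called or not called by the 2 thresholds together, 20 lost a call, 7 gained one and 21 turned direction, 18 of these without 1 replicate. All 20 lost calls were of Hrk, the only member called, in 11 of 18 settings in DM against GS and 9 of 18 in NO against GS. The gained calls were of Bik (4) and Bcl2l11 (3) in NO against GS. These numbers do not follow the adjusted p alone, which Bcl2l11 passed in 8 of 19 settings in DM against GS, and Bcl2l1 in 3 of 19 in NO against GS and 1 of 19 in NO against DM. The cause of the changes below was not tested unless named.

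In DM against GS, 1 of the 10 genes was called. The number was 2 without a minimum fold, and 0 with a minimum log2 fold change of 2, with the replicate block (674 genes called over all, against 763), without a minimum mean, with quantile normalisation, without the trend and with vooma weights. It was also 0 with a minimum mean of 50, which removes Hrk, Bik and Bcl2, and 0 to 1 without 1 replicate. In NO against GS, 1 was called, and the number was 2 without a minimum fold and without the trend, 3 with equal totals and 0 with the 6 samples compared, a minimum log2 fold change of 2, no minimum mean, a minimum mean of 50, quantile normalisation and vooma weights, and 0 to 3 without 1 replicate. In NO against DM it was 0 in all settings, among them 0 to 0 without 1 replicate. In the F test 2 passed, against 1 with no minimum mean, 1 with a minimum mean of 50, 1 with quantile normalisation, 3 with equal totals and 0 to 4 without 1 replicate. The labels do not say whether same-numbered samples of GS and the other media share more than the number. They correlated at -0.232 to 0.0216 (DM) and -0.106 to 0.0503 (NO), and 0 and 1 of 6 correlated best with their own number, against 6 of 6 between NO and DM. Correlations of deviations from means of 3 samples cannot show that the samples were unpaired. The replicate block put the adjusted p in DM at 0.0544 for Hrk and 0.0743 for Bcl2l11 and changed no other count of called members.

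The directions that turned were as follows. Bok in NO against GS was 0.093 with equal totals, and in NO against DM Bcl2 was -0.16 and Bcl2l11 -0.029 with quantile normalisation. Without 1 replicate, DM against GS ran from -0.12 to 0.54 for Bcl2, -0.13 to 0.063 for Mcl1, -0.15 to 0.22 for Bak1, -0.082 to 0.25 for Bok and -0.24 to 0.16 for Bad. NO against GS ran from -0.16 to 0.10 for Bok, and NO against DM from -0.27 to 0.066 for Bok, -0.21 to 0.25 for Bcl2l11, -0.0057 to 0.27 for Bid and -0.46 to 0.26 for Hrk.

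With equal totals, the members called in NO against GS were Hrk at 1.58, Bik at 1.33 and Bcl2l11 at 1.05. This setting moved the median log2 fold change of all genes in that comparison from -0.016 to 0.093. Quantile normalisation moved it to -0.115, and the share of higher calls from 86% to 67.5%, and from 79.3% to 65.1% in NO against DM. Over all genes, the called number in NO against DM was 1552, against 912 with 6 samples, 936 with a minimum mean of 50, 2587 with no minimum fold, 660 with a minimum log2 fold change of 2 and 785 to 2523 without 1 replicate. With a minimum mean of 50, no minimum fold and a minimum log2 fold change of 2, the 763 of DM against GS became 505, 1215 and 242, and the 2127 of NO against GS became 1206, 3640 and 926, or 1398 without the second NO replicate. The 4227 of the F test became 2569 without the third.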
